A study of Mus musculus with 8 samples.

Results

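The inhibitors of the cyclin-dependent kinases (CDKs) were followed in colon epithelium of mice given the dietary carcinogen PhIP, by their levels on oligonucleotide arrays. The set was chosen by gene family and not by the measured values, though with earlier results of these data known. It held the Cip/Kip genes Cdkn1a, Cdkn1b and Cdkn1c, the INK4 genes Cdkn2a, Cdkn2b, Cdkn2c and Cdkn2d, and Cdkn3. Of these 8 genes, 7 were matched to a probe through the probes' RefSeq accessions, and no probe was matched to Cdkn3. The 7 genes had 12 of the 35078 mouse probes on the array. Over the whole array, 15597 genes were matched in this way.

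Epithelium was taken from 5 mice given PhIP and 3 control mice given PBS. PhIP is a heterocyclic aromatic amine that forms when meat is cooked at high heat. All 8 animals were male hCYP1A mice on a C57BL/6 background, which carry a humanized CYP1A locus, the human enzymes that activate PhIP, and all ate AIN93M diet. Each received a single gavage at 8 weeks of age, of PhIP at 200 mg/kg in the PhIP group and of PBS in the PBS group, and the colon crypt epithelium was scraped off 24 h later. The stated aim of the series was a search for transcripts that respond to PhIP in this epithelium. One array was read per mouse, and no group of mice without the humanized locus and no other time was analysed here.

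CDKs drive the cell cycle when bound to a cyclin, and the 2 inhibitor families hold them back in different ways. The Cip/Kip proteins p21, p27 and p57 bind cyclin and CDK together and act on several CDKs, while the INK4 proteins bind CDK4 and CDK6 and keep the D-type cyclins from activating them. CDK4 and CDK6 phosphorylate the RB protein, which otherwise holds the E2F factors and so the genes of S phase in check. In the intestine p21 and p27 are known to mark cells that leave the crypt's dividing compartment, and Cdkn1a is a classical target of p53 after DNA damage. The RNA level does not report the protein, and p27 in particular is known to be set largely by its degradation.

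The array deposited for PhIP mouse 1 stood apart and is called the dim array. Its scan used a gain setting of 700, where the other scans used 650, and the scanner software found 21.38% of its mouse probes, where it found 53.77% to 57.13% on the other 7 arrays. Over tested probes its median correlation with the other arrays was 0.747, where pairs of the other 7 reached at least 0.969. Only 2 of the 12 CDK inhibitor probes were found on it, 1 each for Cdkn1a and Cdkn1c. Quantile normalization gives its unfound spots a level by rank, so the fits of the CDK inhibitor probes are given with 8 arrays and with the 7 others. Levels are normalized log2 intensities, on which an intensity below the floor of 4.41 is set to the floor.

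As a check of the tissue, 5 general epithelial markers (Epcam, Cdh1, Krt8, Krt18 and Krt19) were found on 8 of 8 arrays, while Krt20, Vil1, Cdx1 and Cdx2 were found on 0. Of the other matched colon epithelium markers, Lgals4 was found on 8 arrays, Slc26a3 on 7 and Car1 on 1. The summed intensity of the 12 matched colon epithelium markers was 41160 to 44810 in PhIP mice and 34360 to 37930 in PBS mice, though of the 7 tested singly 4 had a positive and 3 a negative log2 fold change (with 7 arrays, 6 and 1). The 7 fibroblast markers summed to 18900 to 24130 in PhIP mice and 25310 to 36920 in PBS mice, the 6 smooth muscle markers to 17910 to 44320 in PhIP mice (33810 to 44320 without the dim array) and 40090 to 48590 in PBS mice, and the 5 erythroid markers to 268.5 to 7294 in PhIP mice and 9974 to 14670 in PBS mice. The haemoglobin genes carried the erythroid difference, with 3 of the 5 genes negative, while Slc4a1 had a log2 fold change of 0.33 (0.42 with 7 arrays) and Alas2 one of 0.02 (-0.24 with 7 arrays). For epithelium, fibroblasts and erythroid cells the ranges of the 2 groups did not overlap, and the part of these differences in the results below was not tested. In such scraped tissue, fewer cells of a type and less RNA per cell cannot be told apart. Of the 4 matched macrophage and leukocyte markers, Lyz2 and Itgam were found on 8 arrays, Adgre1 on 7 and Ptprc on 0.

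Of the CDK inhibitor probes, 9 of 12 could be tested, for 6 genes, since they were found on at least 3 arrays. With 8 arrays, 1 of these 9 probes was higher in PhIP mice and 0 were lower by limma with Benjamini-Hochberg adjustment over all 20020 tested probes, of which 0.005% were called, namely this 1 probe of Cdkn1a. At an unadjusted p under 0.05, 2 of the 9 differed, beside 2.94% of all tested probes. With the 7 other arrays, both Cdkn1a probes were higher and 0 of the 9 were lower, where 0.035% of 20004 tested probes were called, and 3 of 9 had an unadjusted p under 0.05, beside 8.74% of all. The members' median log2 fold change was 0.35 with 8 arrays, against -0.02 over all tested probes. With 7 arrays it was 0.20, against 0.02. The 8-array median is the value of Cdkn2d probe mMA034168. That probe was not found on the dim array and had -0.32 with 7 arrays.

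Cdkn1a encodes p21, the Cip/Kip inhibitor that p53 induces and that also binds the replication clamp PCNA. It is the member with the response, so the DNA before its annotated starts is shown. The gene lies at chr17:29090979-29100722 on the forward strand (RefSeq, GRCm38.p6), with starts that lie 2790 bases apart, and the 250 bases before each were taken from the RefSeq promoter table. Capitals mark a p53 site of 2 adjacent decamers in the upstream window (chr17:29090729-29090978), and GC boxes (GGGCGG) and TATAA in the downstream window (chr17:29093519-29093768). In the site's own line the 1 base off the consensus is in lower case.
Cdkn1a upstream start: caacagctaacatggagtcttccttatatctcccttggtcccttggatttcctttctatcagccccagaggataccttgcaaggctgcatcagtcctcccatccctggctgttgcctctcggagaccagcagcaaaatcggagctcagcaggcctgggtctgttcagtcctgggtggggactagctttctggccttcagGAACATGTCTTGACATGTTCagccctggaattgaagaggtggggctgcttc
p53 site: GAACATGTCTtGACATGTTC
Cdkn1a downstream start: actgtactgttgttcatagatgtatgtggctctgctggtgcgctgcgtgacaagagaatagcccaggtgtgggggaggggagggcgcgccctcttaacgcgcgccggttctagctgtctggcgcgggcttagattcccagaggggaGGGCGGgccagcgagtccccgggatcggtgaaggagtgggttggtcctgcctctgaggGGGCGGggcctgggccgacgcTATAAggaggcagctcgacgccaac

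The p53 site lies at chr17:29090928-29090947 and begins 51 bases before the upstream start. A pair of adjacent p53 consensus decamers with at most 1 mismatch was present in 25 of 32851 windows of this length in the table, or 0.0761%, and in 1 of the 10 windows of the CDK inhibitor genes (7 genes, none for Cdkn1c). A single exact decamer was far commoner, at 7.13% of all windows and 2 of the 10, the second being that of Cdkn2d. GGGCGG, sought on both strands, was in 32.7% of all windows and in 6 of the 10. TATAA, sought likewise, was in 22.8% of all and in 2 of the 10, both before Cdkn1a, and in the downstream window it lies 25 bases before the start. A match describes these letters and shows neither binding nor a cause. The arrays do not separate transcripts from the starts.

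Both Cdkn1a probes were brighter in PhIP mice. The probe mMR028209 had log2 intensities of 11.41, 10.95, 11.23, 11.12 and 11.23 in PhIP mice 1 to 5, against 9.01, 8.45 and 8.59 in PBS mice 1 to 3. The groups did not overlap, and every PhIP array, the dim one included, lay above each PBS array by more than the range within either group. The spot was found on 8 of 8 arrays, and before normalization its intensity was 676 on the dim array and 2046 to 2855 on the other PhIP arrays, against 410 to 542 in PBS mice. The level averaged 11.19 ± 0.17 in PhIP mice (SD, n = 5) and 8.68 ± 0.30 in PBS mice (SD, n = 3). Cdkn1a thus rose 5.68-fold, or by 2.51 on the log2 scale (SE 0.17, 95% interval 2.11 to 2.91, limma adjusted p = 0.00875). This was the smallest p of all tested probes and the second largest rise. With 7 arrays it rose by 2.43 on the log2 scale (SE 0.15, limma adjusted p = 0.0047).

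The probe mMC021344, also matched to Cdkn1a, had log2 intensities of 6.93, 8.73, 8.82, 9.25 and 8.70 in PhIP mice 1 to 5, against 6.62, 6.24 and 6.40 in PBS mice 1 to 3. Its low PhIP value is that of the dim array, where the scanner software did not find the spot and its raw intensity was 13, against 424 to 799 on the other PhIP arrays and 92 to 107 on the PBS arrays. After normalization the groups did not overlap, but the level of 6.93 was given by rank to that unfound spot. Its raw intensity lay below that of every PBS array, so the separation with 8 arrays rests on the normalization. With 8 arrays the log2 fold change was 2.07 (SE 0.50, 95% interval 0.91 to 3.22) and did not pass (limma adjusted p = 0.838). With the 7 other arrays Cdkn1a rose 5.46-fold by this probe, or by 2.45 on the log2 scale (SE 0.18, limma adjusted p = 0.0101), the third smallest p of all tested probes. The plot of both probes by mouse shows how far the dim array departs on the second probe and not on the first.

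**Figure D1:**
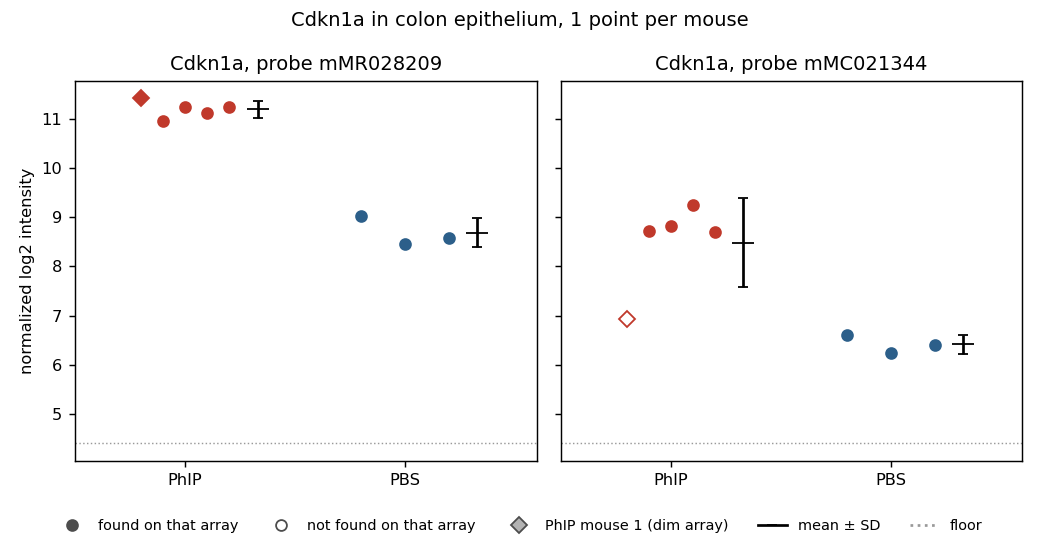
Normalized log2 intensity (vertical axis) of both Cdkn1a probes in 5 PhIP and 3 PBS mice, 1 point per mouse, with the mean ± SD at the side of each group. Every PhIP point lies above every PBS point on both probes. The open diamond at 6.93 on probe mMC021344 is the dim array, where that spot was not found and its level was given by rank.

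The 2 probes gave the same picture once the dim array was left out. Across arrays their log2 intensities correlated at r = 0.804 over 8 arrays and r = 0.987 over 7, a description over arrays of both treatments. The log2 fold changes from 7 arrays, 2.43 and 2.45, lay within 1 SE of each other. In the ranking by log2 fold change over all tested probes the pair stood 2 and 6 with 8 arrays, and 3 and 4 with 7.

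Slides and handling partly followed the treatment. Going by the scan names, the 5 PhIP arrays and PBS mouse 3 came from 1 range of slide numbers and PBS mice 1 and 2 from another, and PhIP mice 1 and 3 and PBS mice 1 and 2 were on re-dipped arrays. For probe mMR028209 of Cdkn1a the log2 fold change was 2.60 with the slide range as a block (limma adjusted p = 0.0891). It was likewise 2.60 within the range that held both groups, where PBS mouse 3 is the only PBS array. These 2 values are the same contrast, since the other range held no PhIP array. For this probe the log2 fold change was 2.59 within the re-dipped arrays (limma adjusted p = 0.677). Within the others it was 2.52, again against 1 PBS array, which is taken to vary as the PhIP arrays do. Over 27 alternatives its log2 fold change lay between 2.34 and 2.81, its adjusted p between 2.44e-05 and 0.716, and it passed in 16. Leaving out PhIP mouse 3, 4 or 5 or PBS mouse 2 or 3 ended the call, with adjusted p-values of 0.0731, 0.0631, 0.0736, 0.082 and 0.127 and log2 fold changes of 2.39 to 2.53. The other probe, mMC021344, ranged from 1.45 to 2.56 over 25 alternatives and passed in 5. The plot of settings shows both probes above 0 throughout.

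**Figure D2:**
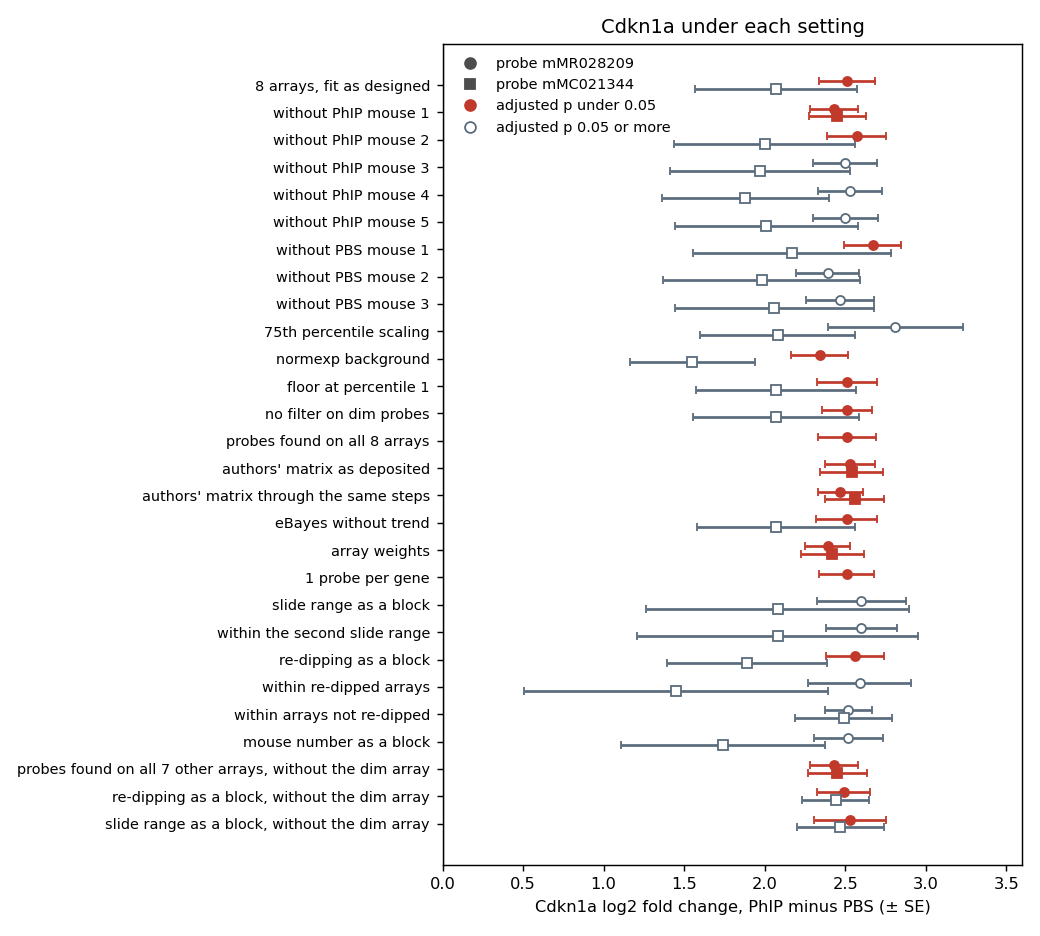
Log2 fold change of Cdkn1a, PhIP minus PBS (horizontal axis, ± SE), by probe (circle mMR028209, square mMC021344) under each processing setting (rows), with filled red marks for an adjusted p under 0.05. Values run from 2.34 to 2.81 for mMR028209 and from 1.45 to 2.56 for mMC021344.

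The genes whose level across the 8 arrays was most like that of Cdkn1a probe mMR028209 were Eda2r (Pearson r = 0.978), Psrc1 (0.96), Fbxw9 (0.955), Tymp (0.953), Slc19a2 (0.941) and Def6 (0.94). Over the 7 arrays without the dim one the same pairs had r of 0.991, 0.956, 0.95, 0.985, 0.934 and 0.932. Eda2r encodes a receptor of the TNF receptor family, Psrc1 a spindle protein, Tymp thymidine phosphorylase and Slc19a2 a thiamine transporter. These arrays hold both treatments, so a gene that was higher in PhIP mice scores high for that alone. Likeness is not size, since Def6 had a log2 fold change of 0.35 and Eda2r one of 2.23.

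Cdkn1b encodes p27, which binds cyclin E with CDK2 and is known as a brake on entry into S phase (chr6:134920401-134925525). Its probe mMC026334 had log2 intensities of 7.33, 6.20, 5.92, 5.96 and 5.82 in PhIP mice 1 to 5, against 5.12, 5.30 and 6.22 in PBS mice 1 to 3. The high value is the dim array, where the spot was not found at a raw intensity of 16, and PBS mouse 3 lay above the other 4 PhIP mice, so the groups overlapped. The log2 fold change was 0.70 (SE 0.44, 95% interval -0.30 to 1.70, limma adjusted p = 0.838). With 7 arrays it was 0.43 (SE 0.28, 95% interval -0.22 to 1.08, limma adjusted p = 0.705). Cdkn1b's other probe, mMR029688, was found on the arrays of PhIP mice 4 and 5 only, at log2 intensities of 4.62 and 4.86, and every PBS array had it at the floor. It was too dim to be tested.

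Cdkn1c encodes p57, the third Cip/Kip protein, which is expressed from the maternal copy of an imprinted cluster (chr7:143458339-143461059). Its probe mMC018939 had log2 intensities of 10.93, 9.74, 9.48, 9.23 and 9.19 in PhIP mice 1 to 5, against 8.83, 9.02 and 9.91 in PBS mice 1 to 3. It is the other member probe found on the dim array, which gave its highest normalized level. Before normalization its intensity was 442 there, against 602 to 885 on the other PhIP arrays and 479 to 1041 in PBS mice. PBS mouse 3 exceeded the other 4 PhIP mice, as it did for Cdkn1b. The log2 fold change was 0.46 (SE 0.44, 95% interval -0.55 to 1.47, limma adjusted p = 0.838), and with 7 arrays 0.16 (SE 0.27, 95% interval -0.47 to 0.78, limma adjusted p = 0.893). With the slide range as a block, which sets the PhIP mice against PBS mouse 3 alone, it was -0.20, so no direction was settled.

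The INK4 genes come next, of which Cdkn2a and Cdkn2b are neighbours on chromosome 4 and Cdkn2c lies on the same chromosome. Cdkn2a encodes p16 and, in another reading frame, Arf, which stabilizes p53 by holding Mdm2 (chr4:89274473-89294619). Neither of its probes, mMC011776 and mMA033460, was found on any of the 8 arrays. Their raw intensities were -4 to 8 and 0 to 6 in PhIP mice, against 0 to 2 and -3 to 9 in PBS mice, and all 16 values were at the floor. Cdkn2a RNA was thus not detectable with these probes in either group and was not tested. Both probes are labelled with the same RefSeq transcript, of 2 for the gene. Without probe sequences it is not known whether they also match the other.

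Cdkn2b encodes p15, known as a TGF-beta target (chr4:89306289-89311032). Its probe mMC010320 had log2 intensities of 7.76, 6.46, 5.69, 5.36 and 5.39 in PhIP mice 1 to 5, against 5.78, 6.16 and 5.61 in PBS mice 1 to 3. Without the unfound value of the dim array (7.76, raw intensity 21), PhIP mice spanned both sides of the PBS range. The log2 fold change was 0.28 with 8 arrays (SE 0.57, limma adjusted p = 0.864) and -0.13 with 7 (SE 0.30, 95% interval -0.83 to 0.58, limma adjusted p = 0.933), so its sign turned with that 1 array.

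Cdkn2c encodes p18, another INK4 protein (chr4:109660876-109666756), and had 2 tested probes. The probe mMC018119 had log2 intensities of 8.09, 8.44, 8.56, 8.46 and 8.40 in PhIP mice 1 to 5, against 8.03, 8.06 and 8.30 in PBS mice 1 to 3. All PhIP mice but the dim array's lay above all PBS mice. Its log2 fold change was 0.26 (SE 0.19, 95% interval -0.19 to 0.70, limma adjusted p = 0.838), and with 7 arrays 0.33 (SE 0.11, 95% interval 0.07 to 0.59), which had an unadjusted p of 0.0194 and did not pass over all probes (limma adjusted p = 0.485). The probe mMA033487 had 7.69, 7.35, 7.45, 7.23 and 7.30 in PhIP mice 1 to 5, against 7.55, 7.06 and 6.81 in PBS mice 1 to 3, on the same log2 scale. Here PBS mouse 1 lay above 4 of the 5 PhIP mice, and the log2 fold change was 0.27 (SE 0.27) with 8 arrays and 0.20 (SE 0.20, limma adjusted p = 0.807) with 7. The 2 Cdkn2c probes had the same sign but did not follow each other across arrays (r = -0.142 over 8 arrays and r = 0.105 over 7).

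Cdkn2d encodes p19, the INK4 protein that varies through the cell cycle (chr9:21288459-21291421). Its probe mMC009333 had log2 intensities of 8.85, 9.41, 8.96, 8.87 and 9.02 in PhIP mice 1 to 5, against 9.08, 9.0 and 9.40 in PBS mice 1 to 3. The groups covered nearly the same range, and the log2 fold change was -0.14 (SE 0.19, 95% interval -0.58 to 0.30, limma adjusted p = 0.838) with 8 arrays and -0.09 (SE 0.16) with 7. The probe mMA034168 was near background, with 8.00, 4.67, 4.41, 5.15 and 4.48 in PhIP mice 1 to 5, against 5.03, 5.00 and 4.94 in PBS mice 1 to 3. Its 8.00 comes from an unfound spot of raw intensity 25 on the dim array, the same raw intensity that gave 4.67 on the array of PhIP mouse 2. The log2 fold change was accordingly 0.35 (SE 0.79, limma adjusted p = 0.875) with 8 arrays and -0.32 (SE 0.19, limma adjusted p = 0.685) with 7.

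**Figure D3:**
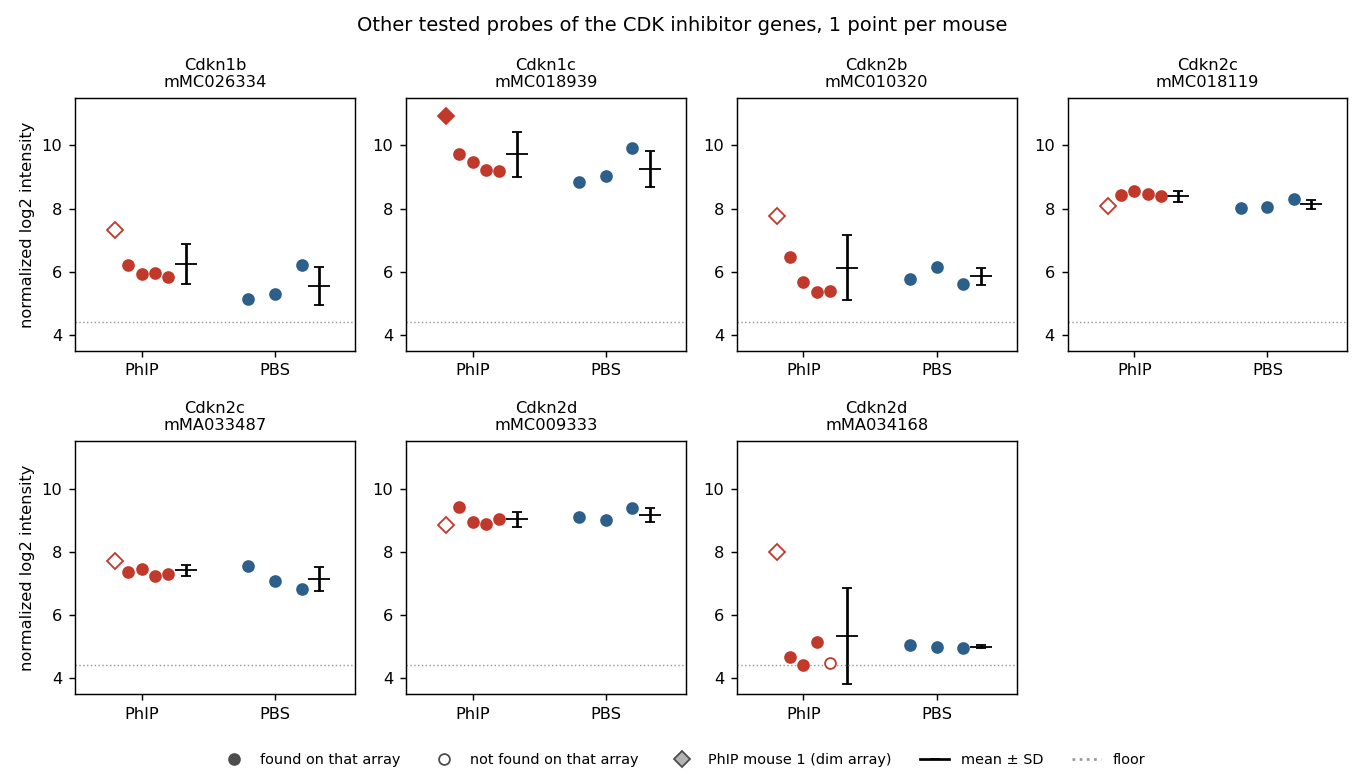
Normalized log2 intensity (vertical axis) of the 7 tested probes of Cdkn1b, Cdkn1c, Cdkn2b, Cdkn2c and Cdkn2d in 5 PhIP and 3 PBS mice, 1 point per mouse, with the mean ± SD at the side of each group. Diamonds are the dim array, open where the spot was not found; without them the groups overlap on every probe except Cdkn2c mMC018119.

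Cdkn3 encodes a phosphatase that removes the activating phosphate from CDK2 and belongs to neither family (chr14:46760461-46771530). With no matched probe, it has no value here.

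Set side by side, the 7-array log2 fold changes of the other tested probes ran from -0.32 for Cdkn2d to 0.43 for Cdkn1b, with an upper 95% bound of 1.08 at most (Cdkn1b), whereas the lower bounds of the Cdkn1a probes were 2.09 and 2.04. With 8 arrays the bounds were not so separated. The highest upper bound was then 2.16 (Cdkn2d mMA034168), and the lower bounds of the Cdkn1a probes were 2.11 and 0.91. The difference between members was not tested. Groups did not overlap, with PhIP higher, for 2 of 9 probes with 8 arrays, where this held for 3.25% of all tested probes, and for 3 of 9 with 7 arrays, where it held for 5.41%. These were the Cdkn1a probes and, with 7 arrays, Cdkn2c mMC018119. For Cdkn1a mMC021344 the separation with 8 arrays rests on the level that normalization gave the unfound spot of the dim array. No member probe had all PhIP arrays below all PBS arrays. By sign alone, 8 of 9 log2 fold changes were positive with 8 arrays and 6 of 9 with 7. The probes whose sign turned were Cdkn2b and Cdkn2d mMA034168, neither found on the dim array. Over the whole array, with 1 probe per gene, 8104 of 15854 were positive with 8 arrays and 8841 of 15842 with 7.

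**Figure D4:**
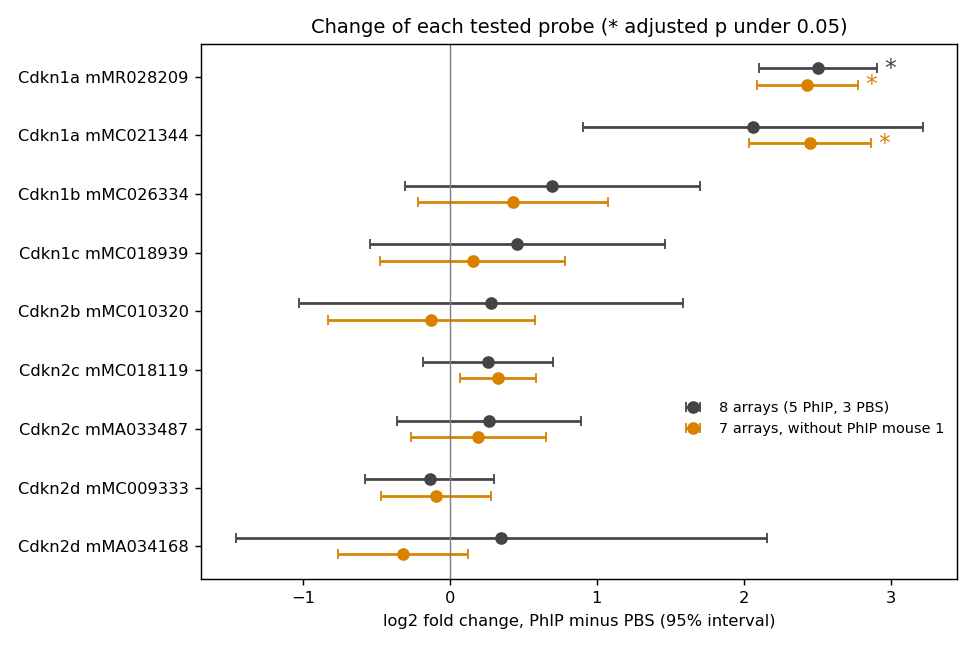
Log2 fold change, PhIP minus PBS (horizontal axis), with its 95% interval, for each tested probe of the CDK inhibitor genes, with 8 arrays (grey) and with 7 (orange); a star marks an adjusted p under 0.05. The Cdkn1a points lie between 2.07 and 2.51, and the intervals of the other probes include or nearly reach 0.

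Genes around the inhibitors were counted by list, with 1 probe per gene, the brightest. In this form 2 of 15854 features passed with 8 arrays (0.0126%), Cdkn1a and Eda2r, and 5 of 15842 with 7 (0.0316%), and the median log2 fold change over all features was 0.01 and 0.03. An unadjusted p under 0.05 was reached by 3.08% of all features with 8 arrays and 9.27% with 7, against which the unadjusted counts of each list are to be read. Upstream of Cdkn1a, 17 regulators of its transcription were tested, with 8 positive and 9 negative and a median of -0.05, and with 7 arrays 0.01. None of these 17 passed by limma, and 1 had an unadjusted p under 0.05 in either fit. This was Mdm2, the ubiquitin ligase that degrades p53 and is itself induced by it, at 10.25 ± 0.28 in PhIP mice (SD, n = 5) and 9.45 ± 0.05 in PBS mice (SD, n = 3) on the log2 scale. The difference was 0.80 (SE 0.18, limma adjusted p = 0.837), and with 7 arrays 0.68 (SE 0.07, limma adjusted p = 0.0516). Mdm2's other tested probe was less precise, at 0.60 (SE 0.34), and 0.66 (SE 0.29) with 7 arrays. Myc, a repressor of Cdkn1a, had -0.44 (SE 0.28) and, with 7 arrays, -0.29 (SE 0.19).

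Other genes that p53 is known to induce were counted next. Of 16 tested, 12 had a positive log2 fold change with 8 arrays and 16 with 7, with medians of 0.61 and 0.88. Over all features, 8104 of 15854 were positive with 8 arrays and 8841 of 15842 with 7. Eda2r rose with 8 arrays, at 9.81 ± 0.23 in PhIP mice (SD, n = 5) and 7.58 ± 0.31 in PBS mice (SD, n = 3) on the log2 scale. This is a difference of 2.23 (SE 0.21, limma adjusted p = 0.0371). The call held without PhIP mouse 1 (2.28, limma adjusted p = 0.0136) and with the authors' matrix through the same steps (2.39, limma adjusted p = 0.00269). That matrix does not hold the scan of the dim array. The call was lost on leaving out any other mouse (2.08 to 2.39, limma adjusted p of 0.0782 to 0.35). It was also lost with the slide range (2.56), re-dipping (2.28) or mouse number (2.19) as a block, and within the slide and re-dipping subsets (2.07 to 2.56), where the limma adjusted p was 0.0769 to 0.72. With 7 arrays Phlda3, which encodes an inhibitor of Akt signalling, rose as well, with a log2 fold change of 1.29 (SE 0.11, limma adjusted p = 0.0203), against 1.10 (SE 0.28, limma adjusted p = 0.837) with 8. At an unadjusted p under 0.05, 6 of the 16 differed with 8 arrays and 12 with 7, beside the shares of all features given above. The list mean, relative to the PBS mean, was -0.56 on the dim array and 0.79 to 0.88 on the other 4 PhIP arrays.

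Downstream, the kinases and cyclins that the inhibitors bind had no member past the threshold. Of 6 tested G1 cyclins and CDKs, 0 passed by limma and 0 had an unadjusted p under 0.05, with medians of -0.15 (8 arrays) and 0.02 (7 arrays). Cyclin D1 (Ccnd1), the partner of CDK4 and CDK6, had log2 levels of 12.44 ± 0.28 in PhIP mice (SD, n = 5) and 12.79 ± 0.34 in PBS mice (SD, n = 3), a log2 fold change of -0.35 (SE 0.21), and -0.30 (SE 0.20) with 7 arrays. Its 3 other tested probes were also negative, at -0.37, -0.73 and -0.87, the last with an unadjusted p of 0.0354, and with 7 arrays they had -0.53, -1.07 and -0.64. Cyclin D3 (Ccnd3) had a log2 fold change of -0.33 (SE 0.26), and -0.13 (SE 0.08) with 7 arrays. Of 8 tested cyclins, kinases and phosphatases of S phase, G2 and mitosis, 3 were positive and 5 negative in either fit, with medians of -0.47 and -0.24. None passed by limma, and 2 had an unadjusted p under 0.05 in either fit, in opposite directions. Ccnb1, which encodes the mitotic cyclin B1, had -0.96 (SE 0.19, limma adjusted p = 0.837), 2 of the 5 PhIP values being at the floor, and Wee1, the kinase that inhibits CDK1, had 0.54 (SE 0.17, limma adjusted p = 0.837). With 7 arrays these were -0.92 (SE 0.18) and 0.54 (SE 0.15). The other Ccnb1 probe disagreed, at 0.07 (SE 0.22), and -0.11 with 7 arrays. Of the CDK-activating kinase, Ccnh and Mnat1 had -0.17 (SE 0.19) and -0.34 (SE 0.43), and -0.04 and -0.00094 with 7 arrays.

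The RB and E2F side had no call either. Of 12 tested genes of the RB family, E2F and the DREAM complex, 3 were positive and 9 negative, with medians of -0.35 and -0.07, and 0 passed by limma (unadjusted, 0 with 8 arrays and 1 with 7). Rb1 had a log2 fold change of 0.39 (SE 0.23, and SE 0.16 with 7 arrays at the same 0.39), and Lin54, a DNA-binding subunit of DREAM, had -0.54 (SE 0.34, with 1 PhIP array at the floor), and -0.40 (SE 0.32) with 7 arrays. Of 16 E2F target genes of S phase, 6 were positive with 8 arrays and 11 with 7, with medians of -0.06 and 0.12, and 0 passed by limma (unadjusted, 0 and 1). Cdc6, which licenses replication origins, had 0.51 (SE 0.48, with 2 PhIP arrays and 1 PBS array at the floor), and with 7 arrays 0.17 (SE 0.29). For this list the PhIP arrays differed among themselves, with list means relative to PBS of -0.90 on the dim array, -0.47 for PhIP mouse 2 and 0.25 to 0.43 for PhIP mice 3, 4 and 5.

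The genes that set the level of the inhibitors by other routes were counted last. Of 12 tested genes for the turnover of p21 and p27, 5 were positive and 7 negative in either fit, with medians of -0.17 and -0.08, and 0 passed by limma (unadjusted, 0 in either). Cops5, a subunit of the COP9 signalosome that promotes p27 degradation, had -0.45 (SE 0.38) and, with 7 arrays, -0.13 (SE 0.10), while Rbx1, the RING subunit of cullin ligases, had 0.15 (SE 0.13) and 0.08 (SE 0.07), and its 2 other tested probes were negative with 8 arrays, at -0.26 and -0.04. Of 12 Polycomb and other regulators of the INK4 locus, 7 were positive and 5 negative, with medians of 0.21 and 0.07, and 0 passed by limma (unadjusted, 1 with 8 arrays and 3 with 7). Ezh2, the methyltransferase that represses Cdkn2a, had -0.90 (SE 0.56, with 1 PhIP array at the floor) and -0.45 (SE 0.14) with 7 arrays, and Eed, its partner, had 0.55 (SE 0.24) and 0.47 (SE 0.20). The plot of lists shows each gene and the median of each list in both fits.

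**Figure D5:**
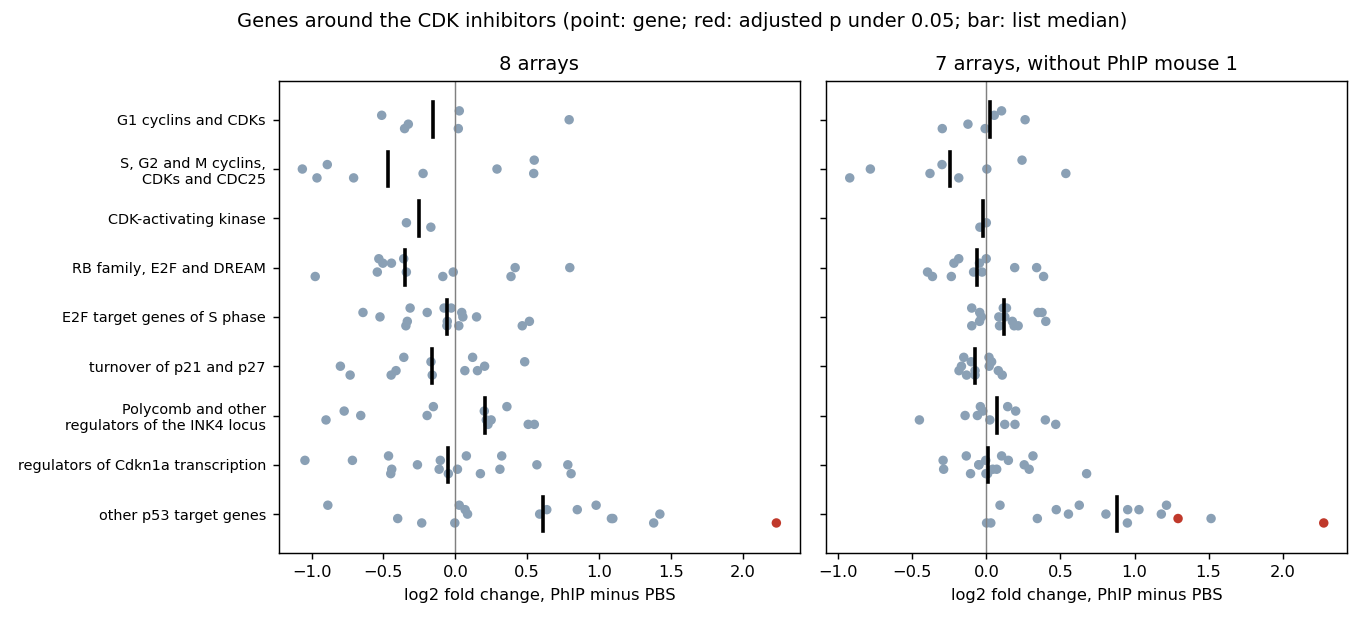
Log2 fold change, PhIP minus PBS (horizontal axis), of each tested gene in 9 lists (rows) with 8 arrays (left) and 7 arrays (right); bars are list medians and red points have an adjusted p under 0.05. The median of the other p53 target genes is 0.61 on the left and 0.88 on the right, and no other list has a red point.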

How the data were processed

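Colon epithelium of 5 PhIP and 3 PBS mice was read on 1-colour spotted arrays of long oligonucleotides (biotin-labelled cRNA, Alexa-647), per the labels' protocols. GenePix Pro 4.1.1.4 read the 635 nm scans, subtracting local background without normalizing, per the file headers. The deposited intensity used here is the spot median minus local background, linear and possibly below 0, and a deposited quality score, the flag, says whether a spot was found, absent, empty or bad. The deposited log2 matrix was used as an alternative. Set against the scans, its columns equal log2 intensities plus a constant per array, with medians of 4.68 to 5.13, and whether the constants are a normalization is not given. Its PhIP mouse 1 column holds the scan deposited for PhIP mouse 2, and its PhIP mouse 2 column matched none of the scans used here.

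Intensities of 35078 mouse probes were quantile normalized, raised to a floor (21.25 with 8 arrays, 23.71 with 7, the percentile 5 of found values) and put on the log2 scale; the 7-array fits were normalized anew, so their levels differ slightly. The 3802 control or empty spots were left out. Probes found on at least 3 arrays and flagged bad on none were tested with limma 3.58.1 in R 4.3.3 (lmFit, eBayes with a trend, 2-sided), adjusted by Benjamini-Hochberg over all tested probes at 0.05. A RefSeq gene table (GRCm38.p6) named 23071 probes, leaving 12007 with no symbol. The limma fit was tested on simulated log2 levels. These were drawn after normalization, floor and filter, so those steps were not tested in this way. The number of arrays limits the precision. Figures used matplotlib 3.10.9 in Python 3.11.15.

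The CDK inhibitor genes, the lists and the tests were chosen with earlier results of these data known. Every member was named, and of each list the genes past the threshold, or otherwise the 2 with the smallest p, plus for each member the genes most alike across arrays; a few of the genes so chosen are not reported here. Alternatives covered normalization, background, floor, filters, the matrix, array weights, 1 probe per gene, slide range, re-dipping, mouse number and leaving out each mouse. Mouse numbers did not pair the samples.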

Additional observations from a re-analysis of the deposited data

Results flagged for a closer look

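Among 18 values examined within the 5 PhIP arrays, 9 had a single array well outside the rest, which by chance happens in about 1 of 20, and all 9 were on the dim array of PhIP mouse 1. On probes, the log2 level of Cdkn1a mMC021344 was 6.931 there, against 8.696 to 9.246 on the other PhIP arrays. Cdkn1b mMC026334 stood at 7.334, against 5.82 to 6.197, and Cdkn2d mMA034168 at 8.003, against 4.409 to 5.155. None of these 3 spots was found on that array.

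The other 6 values were list means of log2 level relative to the PBS mean. The dim array had -1.19 for the CDK-activating kinase genes, where the other PhIP arrays had -0.0982 to 0.0822, and -0.697 for the RB, E2F and DREAM genes, where they had -0.17 to -0.00164. It had -0.643 for the turnover genes of p21 and p27 (others -0.13 to -0.00328), -0.432 for the Polycomb and other INK4 regulators (others 0.0173 to 0.109), -0.358 for the regulators of Cdkn1a transcription (others -0.0113 to 0.105) and -0.563 for the other p53 target genes (others 0.79 to 0.882).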

How the results depend on the processing

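Across the alternatives run, both Cdkn1a probes kept a positive log2 fold change, and what changed was the call. Probe mMR028209 did not pass with scaling to the percentile 75 (2.81, adjusted p = 0.679), with the slide range as a block (2.6), within the second slide range (2.6), within the re-dipped arrays (2.59) and within the others (2.52). With mouse number as a replicate block it was 2.52 (adjusted p = 0.716), and same-numbered mice did not deviate together (r = -0.104, 0.191 and -0.133). Leaving out each mouse gave 2.39 to 2.67. Why calls were lost was not tested. Probe mMC021344 passed without PhIP mouse 1 (2.45), with the matrix as deposited (2.54) or through the same steps (2.56), with array weights (2.42) and among probes found on all 7 other arrays (2.45). The matrix does not hold the scan of the dim array, so its settings differ in the arrays used as well.

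Member probes called were 1 as designed, 2 without PhIP mouse 1, with either matrix setting, with array weights or among probes found on all 7 other arrays, and 0 with percentile scaling, the slide range or mouse number as a block, or within any slide or re-dipping subset; leaving out each mouse gave 0 to 2. Probes called over the array were 1 as designed. They were 0 with percentile scaling, within either re-dipping subset and with the replicate block, and 2 with normexp, a floor at percentile 1, no filter, probes found on all 8 arrays, 1 probe per gene or the slide range as a block. They were 9 within the second slide range, 10 with array weights, 12 and 18 with the matrix through the same steps and as deposited, and 13, 3 and 18 without the dim array for probes found on all 7, re-dipping as a block and slide range as a block, 3 settings chosen after seeing the data. Leaving out each mouse gave 0 to 7. Genes of the lists called were 1 as designed, 4 with the matrix through the same steps, 0 with the slide range, re-dipping or mouse number as a block or within any subset, and 0 to 2 leaving out each mouse.

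Signs turned only among member probes that never passed. Cdkn1b mMC026334 had -0.226 within the arrays not re-dipped and -0.246 with the slide range as a block and no dim array. Cdkn1c had -0.2 within the second slide range and with that range as a block, -0.527 within the arrays not re-dipped, and -0.0168 and -0.499 without the dim array with re-dipping or slide range as a block. Cdkn2b had -0.126 without PhIP mouse 1 (-0.126 to 0.473 over mice left out), with the matrix as deposited and among probes found on all 7, -0.0299 with the matrix through the same steps, -0.192 with array weights and -0.0671 with re-dipping as a block and no dim array. Cdkn2d mMC009333 had 0.0173 with percentile scaling and 0.021 with the matrix as deposited. Cdkn2d mMA034168 had -0.317 without PhIP mouse 1 (-0.317 to 0.576 over mice left out), -0.6 and -0.38 with the matrix as deposited and through the same steps, -0.305 with array weights, -0.175 within the arrays not re-dipped, and -0.382 and -0.266 without the dim array with re-dipping or slide range as a block. Both Cdkn2c probes stayed positive in every alternative run. Fits within the second slide range or the arrays not re-dipped rest on 1 PBS array, taken to vary like the others. Each log2 fold change with the slide range as a block rests on that same PBS mouse 3, since the first range held no PhIP array. Members near background (Cdkn1b, Cdkn2b, Cdkn2d mMA034168) are limited by signal, and Cdkn2a cannot be read at all.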

Other observations

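For the other tested members, the genes with the most similar levels over the 8 arrays differed from those of Cdkn1a. For Cdkn1c mMC018939 they were Lcmt1 (r = 0.996), Zfp639 (0.991) and Pth1r (0.991). For Cdkn1b mMC026334 they were Tom1l2 (0.989), Zswim3 (0.988) and Agap3 (0.985). For Cdkn2b they were Diras1 (0.99), Rgs4 (0.987) and Tbc1d10b (0.983), for Cdkn2c mMC018119 Apol9b (0.978), Stau1 (0.942) and Pcx (0.934), and for Cdkn2d mMC009333 Efnb1 (0.968), Hcst (0.956) and Flrt2 (0.939). Over the 7 arrays without the dim one these pairs had r of 0.927 to 0.998. These are the highest of many correlations over 8 arrays that share their normalization, and they are given as descriptions.

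Of the remaining marker lists, summed intensities were 1311 to 2417 in PhIP mice and 1383 to 1679 in PBS mice for endothelium, 164.9 to 416 in PhIP mice and 166.8 to 192.8 in PBS mice for T and B lymphocytes, and 331.8 to 820.2 in PhIP mice and 427.6 to 777.8 in PBS mice for macrophages and leukocytes. They were 3614 to 6641 in PhIP mice and 2221 to 5884 in PBS mice for adipocytes, and 2137 to 4469 in PhIP mice and 1630 to 3070 in PBS mice for enteric neurons and glia, where Gfap was found on 0 arrays. For all of these but adipocytes the highest PhIP sum is that of the dim array, and without it the highest was 1679 for endothelium, 181.4 for lymphocytes, 565 for macrophages and leukocytes and 3418 for neurons and glia. By log2 fold change, the fibroblast marker Col1a1 had -1.72 (SE 0.56) and Col3a1 -1.34 (SE 0.30), and with 7 arrays these were -1.29 (SE 0.32) and -1.35 (SE 0.31). The other tested Col3a1 probe had a smaller change, at -0.40 (SE 0.16), and -0.40 (SE 0.17) with 7 arrays. The epithelial keratins Krt18 and Krt8 had 0.49 (SE 0.13) and 0.37 (SE 0.12), and with 7 arrays 0.43 (SE 0.08) and 0.35 (SE 0.09). Other epithelial markers went the other way with 8 arrays, with Krt19 at -0.15, Epcam at -0.10 and Slc26a3 at -0.97, and with 7 arrays at 0.08, 0.10 and -0.25. None of these genes passed.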
